A study of Mus musculus with 15 samples.

Results

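Collagen chain genes encode the alpha chains that wind into the triple helices of the extracellular matrix. They were taken here as every gene whose symbol reads Col, a number, a and a number, with a normalized read count of at least 10 in at least 3 of 15 libraries of mouse auditory nerve. Of 44 such symbols among 18536 genes, 43 met the minimum. Col6a4, a chain of type VI collagen, did not: it reached 27 and 15.2 in its highest libraries and 8.42 in the next. The lowest chain kept, Col17a1, was at 10 or more in 8 libraries. By structure, 11 of the 43 were fibrillar chains, 9 were network chains (6 of basement membranes and 3 short chains), 9 were FACITs, 5 belonged to the beaded filaments of type VI and 9 to other kinds. A further grouping, 7 cartilage chains (Col2a1, Col9a1, Col9a2, Col9a3, Col10a1, Col11a1 and Col11a2), runs across these classes.

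Fibrillar collagens form the banded fibrils that carry tension in bone, tendon, cartilage and the sheaths of nerves. FACITs, fibril-associated collagens with interrupted triple helices, sit on the surface of those fibrils. Network collagens form sheets instead, and type IV is the scaffold of basement membranes, including the one around every Schwann cell and axon unit of a peripheral nerve. In the inner ear, types II, IX and XI build the cartilaginous capsule of the early cochlea and are also found in the tectorial membrane, the gel that lies over the hair cells. Variants in COL2A1, COL11A1, COL11A2 and the type IV genes COL4A3, COL4A4 and COL4A5 are known causes of syndromes with hearing loss.

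The libraries came from the auditory nerve, microdissected out of the cochlea of mice at postnatal day (P) 3, 7, 14 and 21 and in adults, with 3 libraries per age. Both cochleae of a mouse were pooled into a library, and no genotype, strain, treatment, sex or adult age in days is given in the labels. The adult libraries carry the word CTRL in their titles, with no further meaning stated. Levels below are normalized read counts, that is, reads per gene divided by a size factor for each library, as the authors deposited them. Where the values of an age are listed, they are in replicate order: 1, 2 and 3, and for P7 the numbers 4, 5 and 6 that the labels give. Errors are SD over the 3 libraries of an age unless marked SE.

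The libraries held between 35250155 and 42258738 reads, and 3 reads corresponded to between 2.53 and 3.65 normalized counts. Libraries from the same age differed in their chains. P21 replicate 2 was the lowest of the P21 libraries for 39 of the 43 chains, while it was the lowest for 40.5% of all genes. P3 replicate 1 was the lowest at its age for 30 chains (38.6% of all genes), P14 replicate 1 for 31 (37.9%) and P7 replicate 5 for 28 (34.2%). The female pattern of the Y-linked gene Eif2s3y was seen in 0 libraries at P3 and P7, 1 at P14, 2 at P21 and 1 in the adult, so sex is partly tied to age. All dissections carried transcripts of Schwann cells (Sox10 3997 to 7084 over all libraries) and neurons (Nefl 10085 to 60898), the cells that the label auditory nerve calls for. In bulk tissue, fewer cells of a type and less RNA per cell cannot be told apart, which applies to every change below.

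Of the 43 collagen chains, 36 fell between P3 and the adult. Together the 43 chains made up 4.28% ± 0.575 of all normalized counts at P3, 3.1% ± 0.336 at P7, 1.99% ± 0.219 at P14, 0.644% ± 0.151 at P21 and 0.31% ± 0.0136 in the adult. No library of a later age reached the lowest of the age before. The 11 fibrillar chains made up most of this share, with 3.09% ± 0.573 at P3 and 0.172% ± 0.00875 in the adult. The share of the cartilage chains was 1.56% ± 0.0473 at P3 and 1.6% ± 0.122 at P7, with overlapping libraries, then 1.09% ± 0.109 at P14, 0.274% ± 0.0665 at P21 and 0.101% ± 0.011 in the adult. Col1a1 and Col1a2, the type I chains of bone and of fibrous tissue, together held 1.47% ± 0.343 at P3 and 0.631% ± 0.137 at P7.

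**Figure D1:**
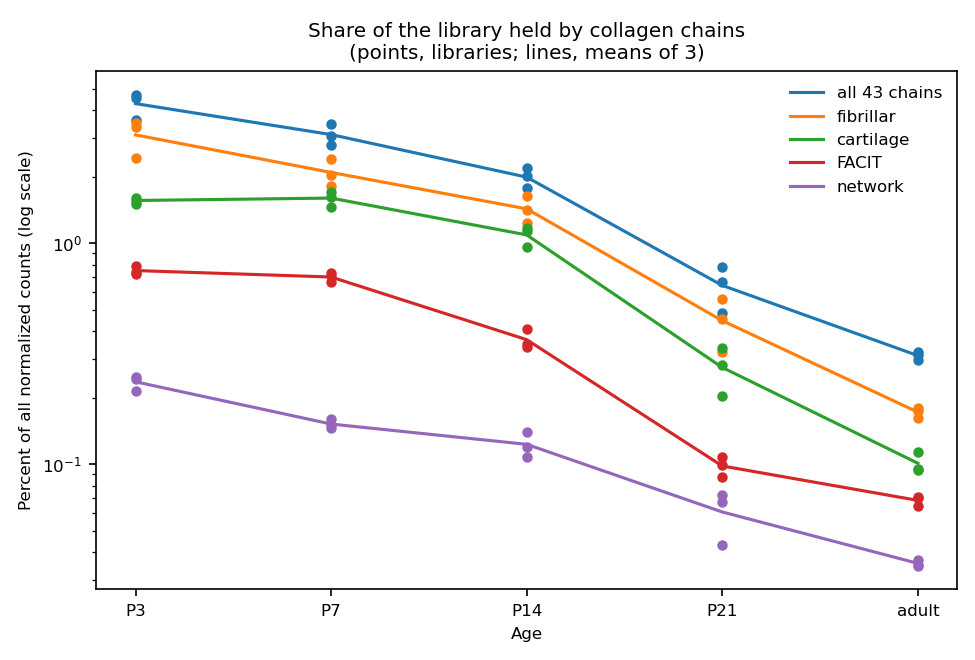
Percent of all normalized counts held by the collagen chains (log axis) at each of 5 ages, with points for libraries and lines through the means of 3. All 43 chains together went from 4.28% at P3 to 0.31% in the adult, and the cartilage chains stood as high at P7 (1.6%) as at P3 (1.56%).

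Each chain was tested with limma on log2(normalized count + 1) over all 16723 genes that met the same minimum, and a chain rose or fell where its Benjamini-Hochberg adjusted p over those genes was under 0.05. All 43 chains entered the test, so the counts that follow describe chains that met that minimum. Between any of the 5 ages, 41 of the 43 differed in the joint limma test, against 85.4% of all genes. The remaining 2 were Col4a6 (limma adjusted p = 0.0511) and Col6a5 (0.0636). From P3 to the adult, 36 chains fell, 2 rose and 5 were not called, where 34.3% of all genes fell and 34.4% rose. The median chain had a log2 fold change of -2.59, against -0.01 for all genes. In 37 chains every adult library lay below every P3 library, which held for 37.8% of all genes.

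More chains fell than rose in each of the 4 steps between neighbouring ages, with the smallest median change from P3 to P7. From P3 to P7, 6 chains rose and 12 fell, where 15.4% of all genes rose and 12.8% fell. These counts were 3 rises without P7 replicate 5 and 7 falls without P3 replicate 3. From P7 to P14, 2 rose and 21 fell (24.3% and 23.8% of all genes). From P14 to P21, 0 rose and 25 fell, in a step where 3.29% of all genes rose and 6% fell. From P21 to the adult, 3 rose and 20 fell (25.4% and 24.1% of all genes). The median log2 fold changes of the 43 chains were -0.11, -0.70, -1.10 and -0.45 in these steps, against -0.02, -0.02, 0.00 and 0.00 for all genes. In 13, 27, 30 and 19 chains every library of the later age lay below every library of the earlier one, against 27.4%, 31.1%, 13.2% and 27.1% of all genes. Without P21 replicate 2, the low library, 24 chains fell and 1 rose from P14 to P21, and 24 fell and 0 rose from P21 to the adult. The rises of that last step were 1 without adult replicate 2 and 5 without P21 replicate 1 or P21 replicate 3. A fit with only the 6 libraries of P14 and P21 called 10 falls in place of 25. The chains that this fit lost were Col1a1, Col4a1, Col4a2, Col4a3, Col4a5, Col5a1, Col5a2, Col5a3, Col8a1, Col11a2, Col13a1, Col16a1, Col22a1, Col23a1 and Col24a1, with adjusted p-values of up to 0.131 over their alternatives.

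The highest mean fell at P3 for 23 chains, at P7 for 13, at P14 for 5, at P21 for 0 and in the adult for 2. Over all genes these shares were 27%, 18.1%, 7.53%, 16.4% and 30.9%. The 5 chains highest at P14 were Col4a3, Col4a4, Col5a3, Col7a1 and Col11a2, and the 2 highest in the adult were the FACITs Col19a1 and Col20a1. The lowest mean was in the adult for 29 chains (29.9% of all genes) and at P21 for 11 (16.1%), while P3 was lowest for Col4a4, Col19a1 and Col20a1 (25.3%). P7 and P14 were lowest for 0 chains, against 19.1% and 9.6% of all genes.

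**Figure D2:**
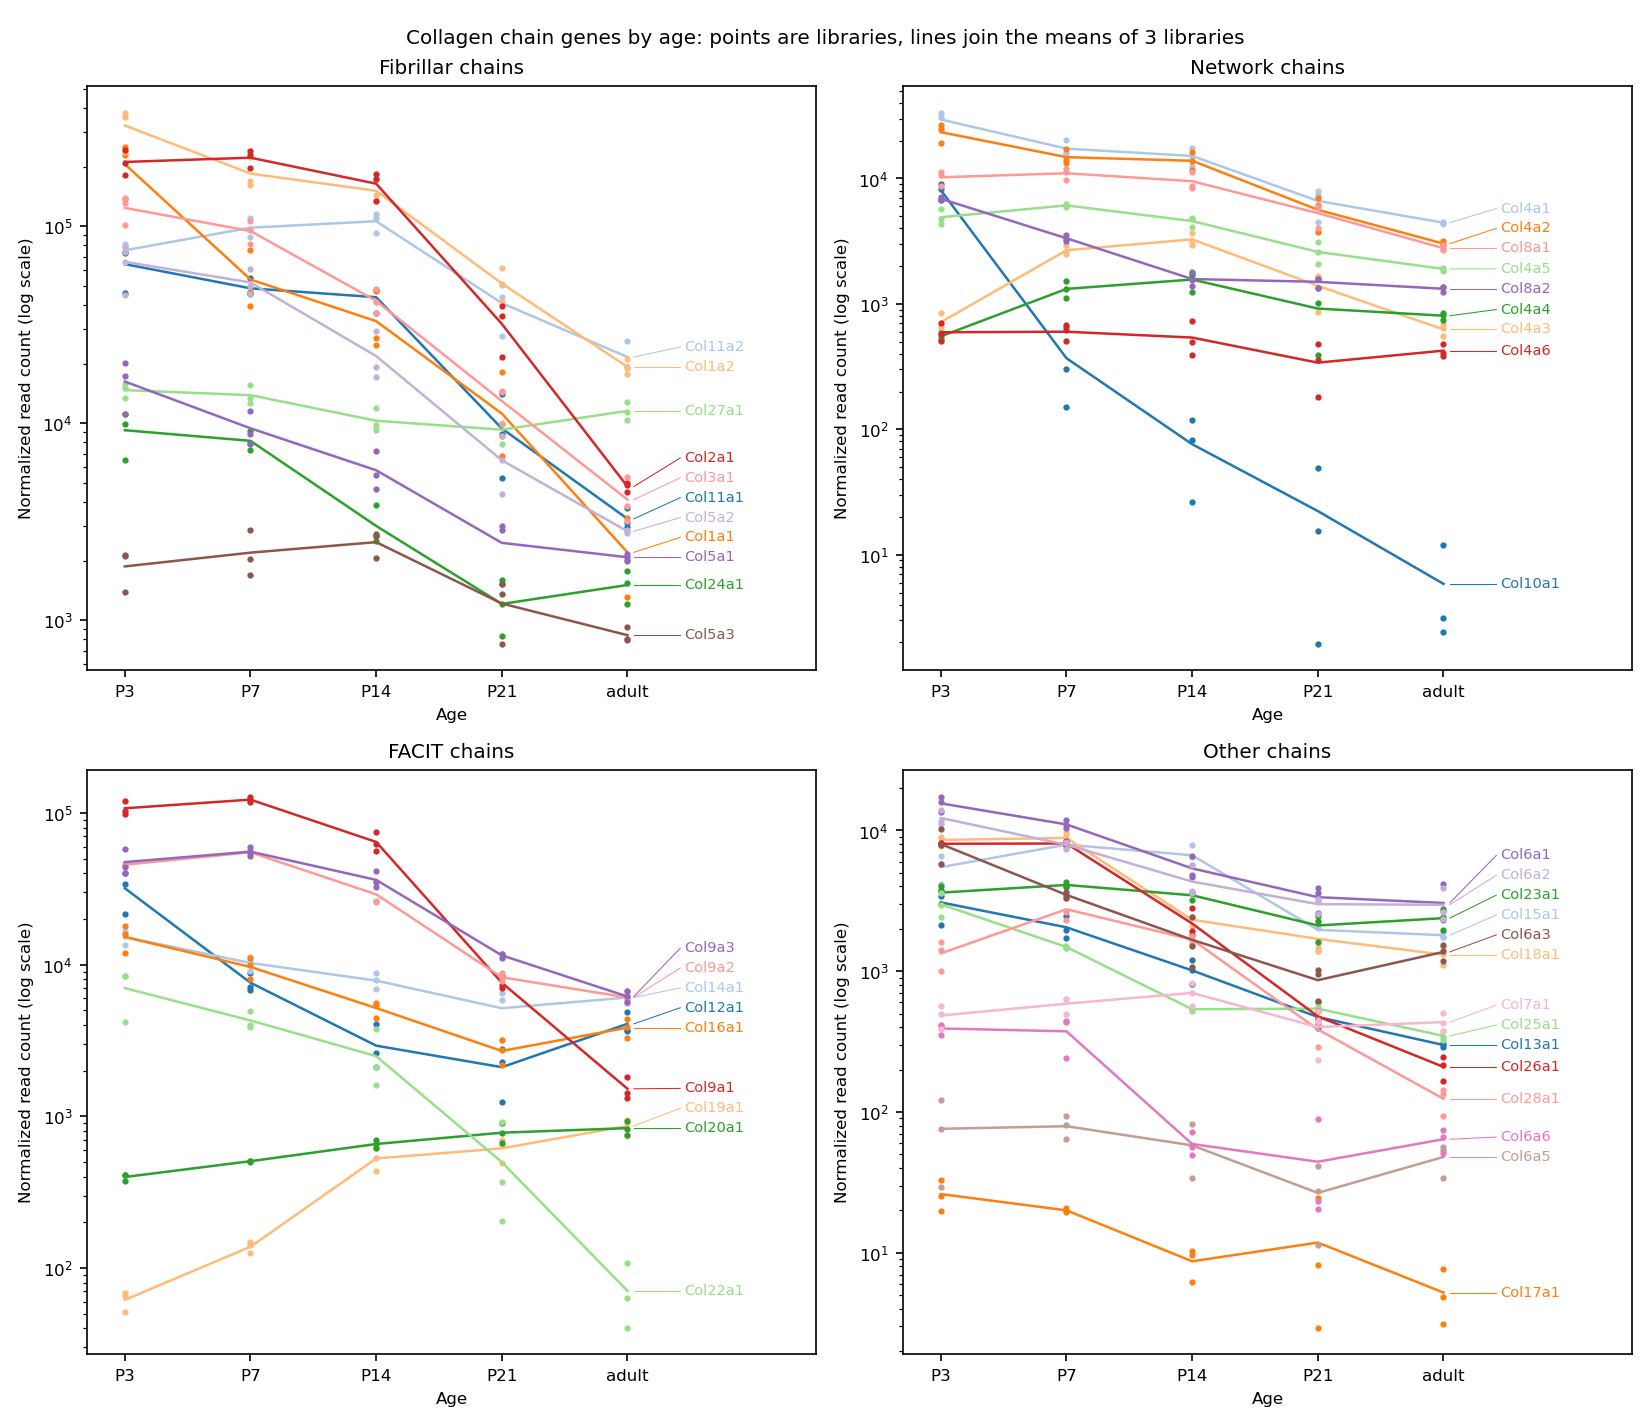
Normalized read count (log axis) of each collagen chain at the 5 ages in 4 panels by class, with points for libraries and lines through the means of 3. Most lines descend to the right, with Col10a1 the steepest (8068 at P3, 5.86 in the adult) and Col19a1 running the other way (61.6 to 864).

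No fibrillar chain rose in any comparison. Among the 11 fibrillar chains 3, 5, 10 and 7 fell in the 4 steps and 0 rose in any of them. All 11 fell from P3 to the adult, with a median log2 fold change of -4.05. Among the 9 network chains 2 rose and 4 fell from P3 to P7, then 2, 5 and 5 fell. Over the whole span from P3 to the adult 6 network chains fell, with a median of -1.87. Among the 9 FACITs 2 rose and 2 fell from P3 to P7, 2 rose and 5 fell from P7 to P14, 0 rose and 5 fell from P14 to P21, and 3 rose and 4 fell from P21 to the adult. Between P3 and the adult 2 FACITs rose and 7 fell, with a median of -2.91.

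The 7 cartilage chains fell mostly after P7. From P3 to P7 only Col10a1 of the 7 fell, from P7 to P14 the 3 type IX chains fell, and in each of the steps from P14 to P21 and from P21 to the adult all but Col10a1 fell. Their median log2 fold changes were 0.19, -0.62, -2.27 and -1.25 in the 4 steps. The first of these had no stable direction, since it was -0.08 with quantile normalization. The FACIT median from P3 to P7 (0.19, or -0.08 with quantile normalization), the FACIT median from P21 to the adult (0.10, or -0.02 without P21 replicate 2) and the network median from P3 to P7 (0.02, or between -0.09 and -0.0021 without any of 5 libraries) were of this kind too. The differences between classes were not tested.

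**Figure D3:**
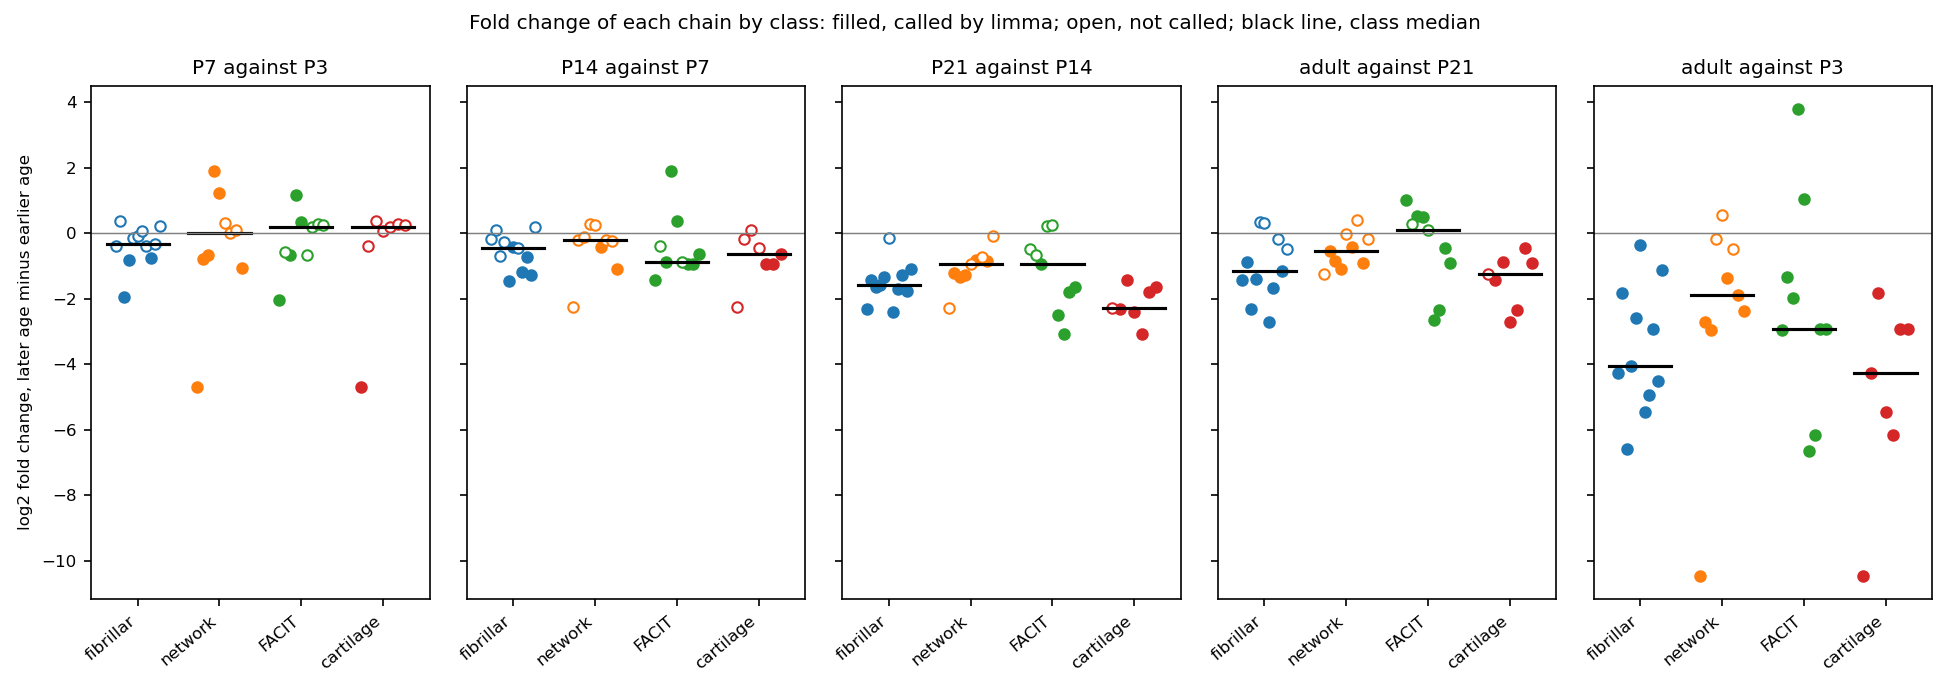
log2 fold change of each fibrillar, network, FACIT and cartilage chain in 4 steps between neighbouring ages and from P3 to the adult, with filled points for chains called by limma, open points for the rest and a black line at the class median. All 11 fibrillar and all 7 cartilage points of the last panel are filled and lie below 0, while 2 FACIT points of that panel lie above it. The FACIT and cartilage medians of the first panel fall to -0.08 with quantile normalization, the network median of that panel falls below 0 without any of 5 libraries, and the FACIT median of the fourth to -0.02 without P21 replicate 2.

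Start sites were looked at for 34 of the 43 chains, those with a window in the RefSeq promoter table of the mouse mm10 assembly. Each window held the 250 bases before the annotated start of transcription. These were shown for the chains that mark the spread of time courses: Col10a1, whose only called fall between neighbouring ages was from P3 to P7, Col3a1, a fibrillar chain of soft tissue, and the cartilage chains Col9a1, Col11a1 and Col11a2, whose first called fall came after P7 or P14. Capitals mark TATAAA on the strand printed, and CCAAT on either strand, which reads ATTGG where it lies on the other strand.
Col10a1, chr10:34389731-34389980, mm10, plus strand: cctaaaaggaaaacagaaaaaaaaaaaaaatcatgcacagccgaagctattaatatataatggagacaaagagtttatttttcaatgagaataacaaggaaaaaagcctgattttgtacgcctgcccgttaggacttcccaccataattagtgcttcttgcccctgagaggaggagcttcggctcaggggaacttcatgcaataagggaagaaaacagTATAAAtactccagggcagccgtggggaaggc
Col3a1, chr1:45311288-45311537, mm10, plus strand: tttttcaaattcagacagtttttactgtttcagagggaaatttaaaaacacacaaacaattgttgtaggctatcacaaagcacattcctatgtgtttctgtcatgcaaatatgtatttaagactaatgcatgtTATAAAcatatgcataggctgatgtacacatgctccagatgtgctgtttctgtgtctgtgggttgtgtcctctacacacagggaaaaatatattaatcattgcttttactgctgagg
Col9a1, chr1:24177360-24177609, mm10, plus strand: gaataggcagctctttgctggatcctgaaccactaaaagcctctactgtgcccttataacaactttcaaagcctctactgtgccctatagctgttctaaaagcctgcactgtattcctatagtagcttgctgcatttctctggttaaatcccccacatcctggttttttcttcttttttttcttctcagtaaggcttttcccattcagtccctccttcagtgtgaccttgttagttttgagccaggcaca
Col11a1, chr3:114030290-114030539, mm10, plus strand: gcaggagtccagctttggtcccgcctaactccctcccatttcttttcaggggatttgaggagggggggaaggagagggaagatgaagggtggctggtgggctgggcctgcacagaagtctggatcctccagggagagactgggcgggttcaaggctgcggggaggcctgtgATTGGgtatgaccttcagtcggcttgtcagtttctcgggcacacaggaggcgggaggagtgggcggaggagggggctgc
Col11a2, chr17:34038888-34039137, mm10, plus strand: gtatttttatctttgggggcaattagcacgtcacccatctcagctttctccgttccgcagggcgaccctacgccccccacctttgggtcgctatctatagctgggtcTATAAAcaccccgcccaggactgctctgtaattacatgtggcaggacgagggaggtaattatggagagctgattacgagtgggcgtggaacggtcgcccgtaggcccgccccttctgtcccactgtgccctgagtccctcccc
The Col10a1 window held TATAAA with its first base 32 bases before the start, where a TATA box usually lies. In Col3a1 and Col11a2 the same letters stood 117 and 143 bases before it. Over all windows TATAAA was in 5 of the 34 chains (Col3a1, Col10a1, Col11a2, Col13a1 and Col17a1) and in 12.4% of 32851 windows of all genes. CCAAT was in 11 of 34 (33.8% of all windows) and the GC box GGGCGG in 20 of 34 (32.7%), Col11a1 and Col11a2 among them and Col3a1, Col9a1 and Col10a1 not. AACCACA, a motif bound by RUNX factors, was in 1 window of 34 (Col17a1; 4.4% of all), and AACAAT, a motif bound by SOX factors, in 1 (Col3a1; 9.42%). Motifs were searched on both strands, and the RUNX and SOX letters can overlap other motifs. The median GC content was 59.4% over the chains' windows and 52.4% over all. Col9a1 has another annotated start 17593 bases downstream, and gene counts do not tell transcripts from the 2 starts apart.

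Type I collagen, the main fibril of bone and of fibrous sheaths, was at its highest at P3. Col1a1 (mm10 chromosome 11, 94936224 to 94953042) stood at 138022, 228989 and 253286 at P3, 46265, 39324 and 75458 at P7, 27192, 25077 and 46663 at P14, 18207, 6806 and 8573 at P21, and 3299, 1305 and 2022 in the adult. All P3 libraries lay above all P7 libraries, while P7 and P14 overlapped. It fell from P3 to P7 (log2 fold change -1.96 ± 0.42 SE, limma adjusted p = 0.0043), from P14 to P21 (log2 fold change -1.63 ± 0.42 SE, limma adjusted p = 0.028) and from P21 to the adult (log2 fold change -2.31 ± 0.42 SE, limma adjusted p = 9.37e-04). The middle one of these calls was lost in 5 of 26 alternatives (adjusted p of up to 0.128), among them those without P14 replicate 3, P21 replicate 2 or P21 replicate 3 and the fit with a replicate block. Col1a1 had a log2 fold change from P3 to the adult of -6.60 ± 0.42 SE (limma adjusted p = 1.12e-08).

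Col1a2 (mm10 chromosome 6, 4505618 to 4541543) codes for the partner chain and stood at 238025, 359082 and 377896 at P3, 169407, 161440 and 224458 at P7, 134934, 144747 and 174530 at P14, 61276, 41553 and 50826 at P21, and 21133, 19106 and 17722 in the adult. Col1a2 fell from P3 to P7 (log2 fold change -0.80 ± 0.19 SE, limma adjusted p = 0.00817), from P14 to P21 (log2 fold change -1.57 ± 0.19 SE, limma adjusted p = 4.66e-04) and from P21 to the adult (log2 fold change -1.39 ± 0.19 SE, limma adjusted p = 2.09e-04). With quantile normalization the first of these was -1.45 and the change from P3 to the adult -4.74 in place of -4.05. Neither type I chain passed the test from P7 to P14.

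Per kb of transcript, the ratio of Col1a1 to Col1a2 within a library was 0.523, 0.575 and 0.604 at P3, 0.246, 0.22 and 0.303 at P7, 0.182, 0.156 and 0.241 at P14, 0.268, 0.148 and 0.152 at P21, and 0.141, 0.0616 and 0.103 in the adult. The type I molecule takes more Col1a1 than Col1a2 chains, and the transcript ratio so computed was below 1 in every library. It rests on the length of 1 transcript per gene, 5930 bases for Col1a1 and 5348 for Col1a2. With all annotated exons merged the lengths are 6563 and 12426, which would raise the ratio. Its place against 1 thus depends on the length taken. The ratio was lower at P7 than at P3 and lower in the adult than at P21 without overlap, and it overlapped between P7, P14 and P21.

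Markers of bone cells are given beside type I. Ibsp, a sialoprotein of bone, stood at 48158, 84981 and 70820 at P3, 115625, 125222 and 121714 at P7, 52955, 33679 and 63644 at P14, 11036, 3191 and 3951 at P21, and 953, 700 and 642 in the adult. Ibsp was thus higher at P7 than at P3, where Col1a1 was lower. P21 replicate 1 was the highest P21 library for Col1a1 and for the bone markers Ibsp, Bglap and Dmp1 alike. Of the 9 osteoblast markers 1 rose and 1 fell from P3 to P7, 1 rose and 4 fell from P7 to P14, 1 rose and 6 fell from P14 to P21, and 8 fell from P21 to the adult. Their summed level was 163183 to 263432 at P3, 218261 to 257178 at P7, 179460 to 215574 at P14, 182144 to 216782 at P21 and 124292 to 127294 in the adult, of which Spp1 alone held 117619 to 121170. None of the 9 was at 0 in all libraries of an age. The 7 osteoclast markers summed to 86135 to 150716 at P3, 34254 to 52694 at P7, 4035 to 4386 at P14, 1309 to 1911 at P21 and 604 to 850 in the adult. The part of bone cells in the type I result was not tested.

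Type III and type V form thin and mixed fibrils in soft tissue. Col3a1 (mm10 chromosome 1, 45311538 to 45349706), the type III chain, stood at 102077, 131540 and 138386 at P3, 95931, 81252 and 106579 at P7, 36424, 41248 and 47794 at P14, 14486, 9897 and 14525 at P21, and 5315, 3171 and 3789 in the adult. Its P3 and P7 libraries overlapped, and from P14 on every age lay below the one before. Col3a1 fell from P7 to P14 (log2 fold change -1.18 ± 0.20 SE, limma adjusted p = 3.29e-04), from P14 to P21 (log2 fold change -1.70 ± 0.20 SE, limma adjusted p = 4.10e-04) and from P21 to the adult (log2 fold change -1.68 ± 0.20 SE, limma adjusted p = 1.12e-04). Of the type V chains, which set the width of type I fibrils, Col5a1 fell in the first 3 steps and Col5a2 in the last 3. The Col5a1 calls from P3 to P7 (limma adjusted p = 0.0478) and from P7 to P14 (0.041) were each lost in 8 of 25 alternatives. From P14 to P21 the Col5a1 call was lost in 2 of 26 alternatives and the Col5a2 call in 1 of 26. Per kb the ratio of Col5a1 to Col5a2 was 0.195 ± 0.0213 at P3, 0.143 ± 0.00732 at P7, 0.211 ± 0.0329 at P14, 0.301 ± 0.0565 at P21 and 0.582 ± 0.0322 in the adult. The libraries of neighbouring ages did not overlap in this ratio, which was above its P3 values in all adult libraries.

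Col5a3 (mm10 chromosome 9, 20770057 to 20815067) codes for the type V chain of narrower tissue range and was the type V chain with its highest mean at P14. Its libraries stood at 1385, 2131 and 2109 at P3, 2043, 1691 and 2874 at P7, 2059, 2676 and 2733 at P14, 1353, 761 and 1530 at P21, and 922, 804 and 792 in the adult. It fell from P14 to P21 (log2 fold change -1.09 ± 0.26 SE, limma adjusted p = 0.0197), a call lost without P14 replicate 2 or 3 and with only both ages, and from P3 to the adult (log2 fold change -1.13 ± 0.26 SE, limma adjusted p = 0.00146). Among the remaining fibrillar chains, Col24a1, a chain of bone, fell from P7 to P14 and from P14 to P21. Col27a1, a chain of cartilage and other tissue, had the smallest log2 fold change of the 11 from P3 to the adult. Its mean was 14725 ± 1226 at P3, 10294 ± 1416 at P14, 9272 ± 1215 at P21 and 11553 ± 1216 in the adult. Its fall from P3 to the adult (limma adjusted p = 0.0256) was lost in 5 of 26 alternatives, and its fall from P7 to P14 (0.0128) in 2 of 25.

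Cartilage fibrils hold type II collagen as their bulk, type XI in their core and type IX on their surface. Col2a1 (mm10 chromosome 15, 97975602 to 98004724), the type II chain, stood at 181425, 210743 and 243988 at P3, 230304, 197052 and 241477 at P7, 134655, 173958 and 184950 at P14, 39255, 21639 and 34969 at P21, and 4969, 4465 and 4874 in the adult. P3 and P7 overlapped, P14 lay slightly lower, and the P21 and adult libraries lay far below. Col2a1 fell from P14 to P21 (log2 fold change -2.40 ± 0.19 SE, limma adjusted p = 1.80e-05) and from P21 to the adult (log2 fold change -2.70 ± 0.19 SE, limma adjusted p = 8.30e-06), and from P7 to P14 it did not pass the test (limma adjusted p = 0.0736). Its log2 fold change from P3 to the adult was -5.47 ± 0.19 SE (limma adjusted p = 8.14e-11).

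Col11a1 (mm10 chromosome 3, 114030540 to 114220756) stood at 45636, 74118 and 72993 at P3, 45772, 45074 and 54382 at P7, 36186, 47340 and 47371 at P14, 14121, 5294 and 8800 at P21, and 2964, 3725 and 3122 in the adult. Its first 3 ages overlapped. Col11a1 fell from P14 to P21 (log2 fold change -2.32 ± 0.28 SE, limma adjusted p = 4.68e-04) and from P21 to the adult (log2 fold change -1.42 ± 0.28 SE, limma adjusted p = 0.00163). Its partner Col11a2 (mm10 chromosome 17, 34039138 to 34066684) stood at 65862, 79332 and 81314 at P3, 96635, 87760 and 110588 at P7, 92719, 110427 and 115103 at P14, 50570, 27716 and 43906 at P21, and 19376, 26297 and 19368 in the adult. Col11a2 fell from P14 to P21 (log2 fold change -1.42 ± 0.20 SE, limma adjusted p = 9.91e-04) and from P21 to the adult (log2 fold change -0.88 ± 0.20 SE, limma adjusted p = 0.00315), so that both type XI genes were called in the same steps. From P3 to the adult the log2 fold changes were -4.27 ± 0.28 SE for Col11a1 and -1.81 ± 0.20 SE for Col11a2. The difference between these 2 was not tested.

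The ratio of Col11a1 to Col11a2 per kb was 0.487, 0.657 and 0.632 at P3 and 0.108, 0.0997 and 0.113 in the adult. Each age lay below the one before without overlap. The ratio of Col11a2 to Col2a1 ran the other way, with 0.344, 0.356 and 0.315 at P3, 0.397, 0.421 and 0.433 at P7, 0.652, 0.601 and 0.589 at P14, 1.22, 1.21 and 1.19 at P21, and 3.69, 5.57 and 3.76 in the adult. It was above the age before in every library, and the P21 libraries lay within 1.19 to 1.22 although their Col2a1 counts ran from 21639 to 39255.

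Type IX is built of 3 different chains. Col9a1 (mm10 chromosome 1, 24177610 to 24252738) stood at 119938, 103011 and 99207 at P3, 121138, 117985 and 128343 at P7, 62407, 74643 and 56242 at P14, 8466, 7039 and 7294 at P21, and 1421, 1806 and 1328 in the adult. The P3 and P7 libraries overlapped, and each later age lay below the one before. Col9a1 fell from P7 to P14 (log2 fold change -0.94 ± 0.13 SE, limma adjusted p = 5.50e-05), from P14 to P21 (log2 fold change -3.08 ± 0.13 SE, limma adjusted p = 5.48e-08) and from P21 to the adult (log2 fold change -2.33 ± 0.13 SE, limma adjusted p = 6.62e-07). Over the whole span its log2 fold change was -6.15 ± 0.13 SE (limma adjusted p = 1.35e-12). Col9a2 and Col9a3 also fell in each of these 3 steps, with log2 fold changes from P3 to the adult of -2.91 ± 0.10 SE and -2.93 ± 0.13 SE. Per kb the ratio of Col9a1 to Col9a2 was 1.8 ± 0.172 at P3, 1.7 ± 0.079 at P7, 1.7 ± 0.116 at P14, 0.701 ± 0.0407 at P21 and 0.19 ± 0.0177 in the adult. The ratio of Col9a1 to Col9a3 was 1.74, 1.8 and 1.72 at P7 and 1.42, 1.43 and 1.38 at P14, without overlap, and reached 0.195 ± 0.0178 in the adult. The ratio of Col9a2 to Col9a3 was also lower at P14 than at P7 without overlap, and stayed between 0.727 and 1.17 in all 15 libraries. Reads of Col9a3 can include some of Tcfl5, which overlaps it on the opposite strand, since the use of strand in counting is not stated.

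**Figure D4:**
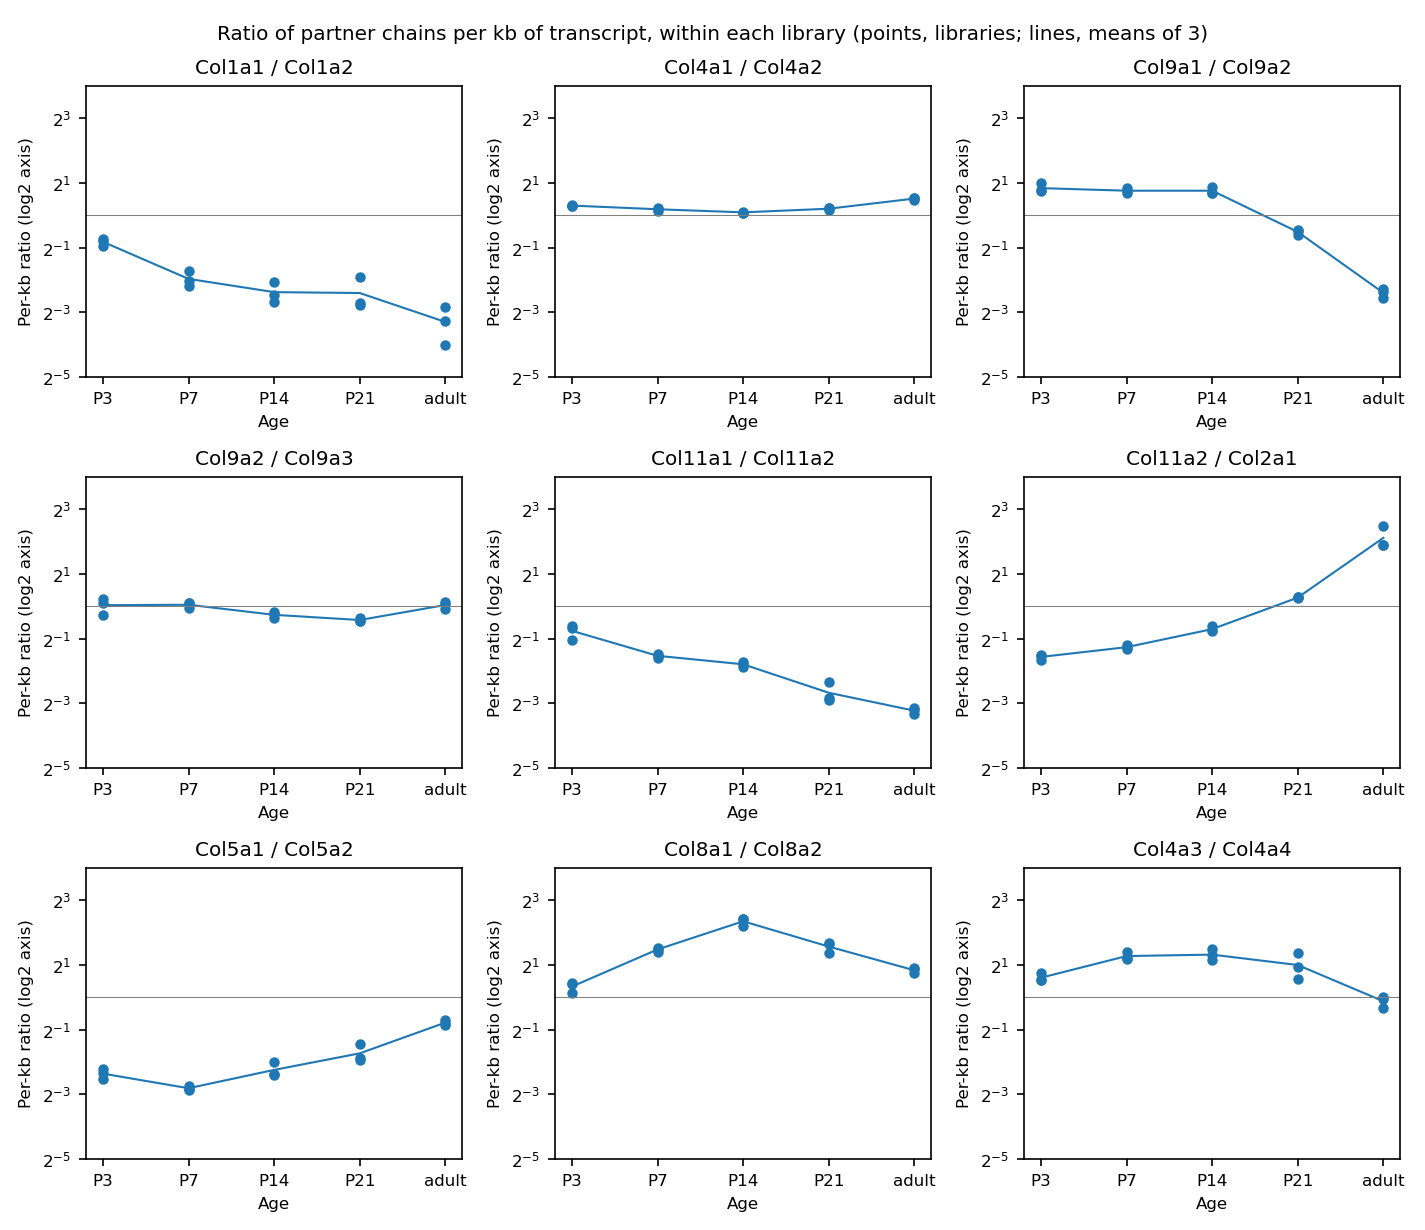
Ratio of partner chains per kb of transcript within each library (log2 axis) for 9 pairs at 5 ages, with points for libraries and lines through the means of 3. Col4a1 / Col4a2 (1.07 to 1.43 as age means) and Col9a2 / Col9a3 (0.746 to 1.03) stay near level, Col1a1 / Col1a2, Col9a1 / Col9a2 and Col11a1 / Col11a2 end below their start, Col11a2 / Col2a1 climbs from 0.338 to 4.34, and Col8a1 / Col8a2 peaks at P14.

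Col10a1 (mm10 chromosome 10, 34389981 to 34397085), the short chain of hypertrophic cartilage, which is the cartilage about to be replaced by bone, stood at 8262, 9041 and 6901 at P3, 300, 151 and 656 at P7, 82.7, 26.5 and 119 at P14, 49.6, 15.4 and 1.96 at P21, and 3.12, 12 and 2.43 in the adult. The P3 libraries lay far above the rest. It fell from P3 to P7 (log2 fold change -4.69 ± 0.89 SE, limma adjusted p = 0.00216) and from P3 to the adult (log2 fold change -10.46 ± 0.89 SE, limma adjusted p = 2.05e-07), the widest change of any of the 43 chains. The later steps did not pass the test, and the P21 and adult libraries stood at 49.6 or less. Its fold change to the adult rests on few reads, and it was -9.03 with a pseudocount of 10 and -11.06 without adult replicate 2. Col10a1 lies inside Nt5dc1, a gene of the opposite strand that stood between 352 and 684 in all libraries, so unstranded counting would mix both.

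Chondrocyte markers other than collagens did not share 1 course. Of 9 fixed markers, Snorc was not analysed here, and 8 summed to 48874 to 62501 at P3, 81008 to 104452 at P7, 56018 to 91959 at P14, 39971 to 72100 at P21 and 17004 to 24816 in the adult. Of the 8, 2 rose and 5 fell from P3 to P7, and 1 rose and 6 fell from P3 to the adult. Matn1 and Comp, matrix proteins of cartilage, stood at 13.4 to 19.4 and 7.14 to 25.8 at P14, where Col2a1 stood at 134655 to 184950. Matn3 was at 8.59 or less at P14. Other markers of the list stood higher at P14, with Acan at 3186 to 5819, Hapln1 at 5845 to 6592 and Matn4 at 704 to 1479. Acan was at 2227 to 4367 at P3 and 5542 to 8702 in the adult. Epyc, which the cochlear epithelium also makes, and Cnmd held most of the sum in every library up to P21. None of the 8 was at 0 in all libraries of an age. Markers of the tectorial membrane and cochlear epithelium, 7 of 7 in the table, summed to 145223 to 166752 at P3, 168069 to 277217 at P7, 50844 to 84426 at P14, 63913 to 72259 at P21 and 19518 to 39140 in the adult. Tectb, a tectorin, stood at 178796, 207225 and 117858 at P7 and at 2431 or less from P14 on. Ceacam16, of the same list, stood at 94, 111 and 57.3 at P7 and at 63955, 59747 and 35337 at P14. From P7 to P14, 1 of these 7 markers rose and 5 fell, and from P3 to the adult 1 rose and 5 fell. The 7 markers of otic fibrocytes summed to 67461 to 158813 at P3, 143757 to 155434 at P7, 376626 to 763532 at P14, 738706 to 1080442 at P21 and 343275 to 547203 in the adult. From P3 to the adult 3 of the 7 fibrocyte markers rose and 4 fell. Coch stood at 6218 to 8162 at P3, 567701 to 849847 at P21 and 275682 to 430273 in the adult. Otor stood at 24115 to 73115 at P3 and 2050 to 2843 in the adult. The part of these tissues in the course of the cartilage chains was not tested.

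Basement membranes hold type IV collagen, whose 6 genes lie head to head in pairs. Col4a1 and Col4a2 form the network of most tissues. Col4a1 (mm10 chromosome 8, 11198423 to 11312826) stood at 24366, 30658 and 33532 at P3, 15813, 15842 and 20215 at P7, 12638, 15171 and 17544 at P14, 7405, 4483 and 7993 at P21, and 4537, 4406 and 4366 in the adult. Col4a2 (mm10 chromosome 8, 11312805 to 11449287), whose start overlaps that of Col4a1, stood at 19067, 24590 and 26574 at P3, 14037, 13178 and 17134 at P7, 11669, 13669 and 16160 at P14, 6133, 3766 and 6981 at P21, and 3194, 2943 and 2929 in the adult. P3 lay above P7 for both, P7 and P14 overlapped, and P21 lay lower again. Col4a1 fell from P14 to P21 (log2 fold change -1.22 ± 0.20 SE, limma adjusted p = 0.00273), and Col4a2 did so too (log2 fold change -1.33 ± 0.20 SE, limma adjusted p = 0.0018). Both of these calls were lost with only both ages. From P3 to P7 the log2 fold changes were -0.77 ± 0.20 SE (limma adjusted p = 0.0114) for Col4a1 and -0.66 ± 0.20 SE (limma adjusted p = 0.0278) for Col4a2. These 2 calls were lost in 1 and 4 of 25 alternatives, without P3 replicate 3 in both cases. From P21 to the adult Col4a2 fell (log2 fold change -0.85 ± 0.20 SE, limma adjusted p = 0.00443), and Col4a1 fell (log2 fold change -0.53 ± 0.20 SE, limma adjusted p = 0.0374), the latter a call lost in 6 of 26 alternatives. The per-kb ratio of Col4a1 to Col4a2 ran from 1.06 to 1.46 over all libraries.

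The second pair, Col4a3 and Col4a4, rose in the first postnatal week. With Col4a5 they form the network of specialised basement membranes, as in the kidney glomerulus and the cochlea. Col4a3 (mm10 chromosome 1, 82586921 to 82722059) stood at 847, 632 and 663 at P3, 2618, 2933 and 2479 at P7, 2948, 3702 and 3154 at P14, 1646, 862 and 1678 at P21, and 550, 688 and 639 in the adult. The P7 and P14 libraries lay far above those of P3 and of the adult, and Col4a3 rose from P3 to P7 (log2 fold change 1.91 ± 0.21 SE, limma adjusted p = 5.58e-05). It fell from P14 to P21 (log2 fold change -1.28 ± 0.21 SE, limma adjusted p = 0.00328) and from P21 to the adult (log2 fold change -1.10 ± 0.21 SE, limma adjusted p = 0.00138). Col4a4 (mm10 chromosome 1, 82450723 to 82586849), 71 bases away on the opposite strand, stood at 591, 520 and 543 at P3, 1319, 1525 and 1107 at P7, 1244, 1759 and 1689 at P14, 1021, 390 and 1343 at P21, and 819, 850 and 747 in the adult. It rose from P3 to P7 (log2 fold change 1.24 ± 0.33 SE, limma adjusted p = 0.013), a call lost without P7 replicate 5, and no later step passed the test. P21 replicate 2 was at 390, below every P3 library, while the other P21 libraries were at 1021 and 1343. The per-kb ratio of Col4a3 to Col4a4 was 1.52 ± 0.147 at P3, 2.5 ± 0.297 at P14 and 0.921 ± 0.113 in the adult.

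The Col4a5 and Col4a6 pair lies on the X chromosome. Col4a5 (mm10 chromosome X, 141475419 to 141689235) stood at 5690, 4714 and 4321 at P3, 5942, 6282 and 6074 at P7, 4123, 4740 and 4862 at P14, 2598, 2078 and 3115 at P21, and 1844, 1950 and 1906 in the adult. It fell from P7 to P14 (log2 fold change -0.42 ± 0.13 SE, limma adjusted p = 0.0167), from P14 to P21 (log2 fold change -0.83 ± 0.13 SE, limma adjusted p = 0.00213) and from P21 to the adult (log2 fold change -0.43 ± 0.13 SE, limma adjusted p = 0.0149). Of these the first was lost without P7 replicate 5 or P14 replicate 1. The middle one was lost with only both ages, and the last without P21 replicate 3 and with only both ages. Col4a6 (mm10 chromosome X, 141165403 to 141474076) stood at 705, 506 and 571 at P3, 503, 615 and 682 at P7, 393, 497 and 729 at P14, 360, 182 and 476 at P21, and 479, 387 and 407 in the adult. Its ages overlapped throughout the postnatal steps, and it passed the test in no comparison. Counting all 6 type IV genes, 2 rose and 2 fell from P3 to P7, 1 fell from P7 to P14, and 4 fell in each of the last 2 steps. The 7 endothelial markers, for cells that also make type IV, summed to 13372 to 15044 at P3, 9935 to 11269 at P7, 9938 to 13778 at P14, 8511 to 11577 at P21 and 11209 to 12896 in the adult, with none at 0 in all libraries of an age. The 7 Schwann cell markers summed to 97987 to 136093 at P3, 381305 to 441242 at P7, 467025 to 637950 at P14, 358650 to 431869 at P21 and 228425 to 247711 in the adult, again with none at 0. From P3 to the adult 4 of the 7 endothelial markers fell and 1 rose. Of the 7 Schwann cell markers 5 rose and 0 fell over that span. The part of these cells in the type IV result was not tested.

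Type VIII, the short-chain network of vessels and of Descemet's membrane, is made of 2 chains that were called in different steps. Col8a2 fell from P3 to P7 (log2 fold change -1.05 ± 0.10 SE, limma adjusted p = 1.20e-05) and from P7 to P14 (-1.08 ± 0.10 SE, limma adjusted p = 1.05e-06). Col8a1 fell from P14 to P21 (-0.85 ± 0.16 SE, limma adjusted p = 0.00576) and from P21 to the adult (-0.91 ± 0.16 SE, limma adjusted p = 7.34e-04). Per kb their ratio was 1.26 ± 0.147 at P3, 5.1 ± 0.431 at P14 and 1.79 ± 0.103 in the adult, with no overlap between neighbouring ages.

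Among the FACITs, Col19a1 and Col20a1 ran against the rest. Col19a1 (mm10 chromosome 1, 24257683 to 24587437), a chain of basement membrane zones that is also known from neurons, stood at 64.9, 51.2 and 68.7 at P3, 148, 141 and 126 at P7, 528, 618 and 436 at P14, 647, 496 and 701 at P21, and 742, 946 and 903 in the adult. It was lower in all P3 libraries than in any other. Col19a1 rose from P3 to P7 (log2 fold change 1.16 ± 0.17 SE, limma adjusted p = 4.09e-04), from P7 to P14 (log2 fold change 1.91 ± 0.17 SE, limma adjusted p = 1.29e-06) and from P21 to the adult (log2 fold change 0.50 ± 0.17 SE, limma adjusted p = 0.0283). The last of these was lost in 6 of 26 alternatives, among them without P21 replicate 2 and with a replicate block. Over the whole span the log2 fold change of Col19a1 was 3.79 ± 0.17 SE (limma adjusted p = 4.85e-10). Col20a1 (mm10 chromosome 2, 180986535 to 181017540) stood at 377, 409 and 410 at P3, 501, 507 and 509 at P7, 654, 696 and 619 at P14, 771, 670 and 899 at P21, and 750, 831 and 926 in the adult. It rose from P3 to P7 (log2 fold change 0.34 ± 0.11 SE, limma adjusted p = 0.0305), a call lost without any 1 of the P3 and P7 libraries, and from P7 to P14 (log2 fold change 0.37 ± 0.11 SE, limma adjusted p = 0.0113). Adult against P3, the log2 fold change of Col20a1 was 1.06 ± 0.11 SE (limma adjusted p = 1.09e-06). Markers of spiral ganglion neurons, 8 of 8 in the table, summed to 47675 to 79311 at P3, 66940 to 77764 at P7, 306102 to 312007 at P14, 284900 to 346030 at P21 and 403233 to 431110 in the adult, with 7 of the 8 higher in the adult than at P3 by the test and none at 0. Their part in the rise of these 2 chains was not tested.

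Col19a1 lies tail to tail with Col9a1, 4944 bases away. The per-kb ratio of Col9a1 to Col19a1 was 1966 ± 325 at P3, 991 ± 125 at P7, 136 ± 6.37 at P14, 14 ± 2.17 at P21 and 1.96 ± 0.283 in the adult. The genes are thus neighbours whose levels moved in opposite directions at the steps where both were called. The use of strand in counting is not stated, but the 2 annotated genes do not overlap.

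**Figure D5:**
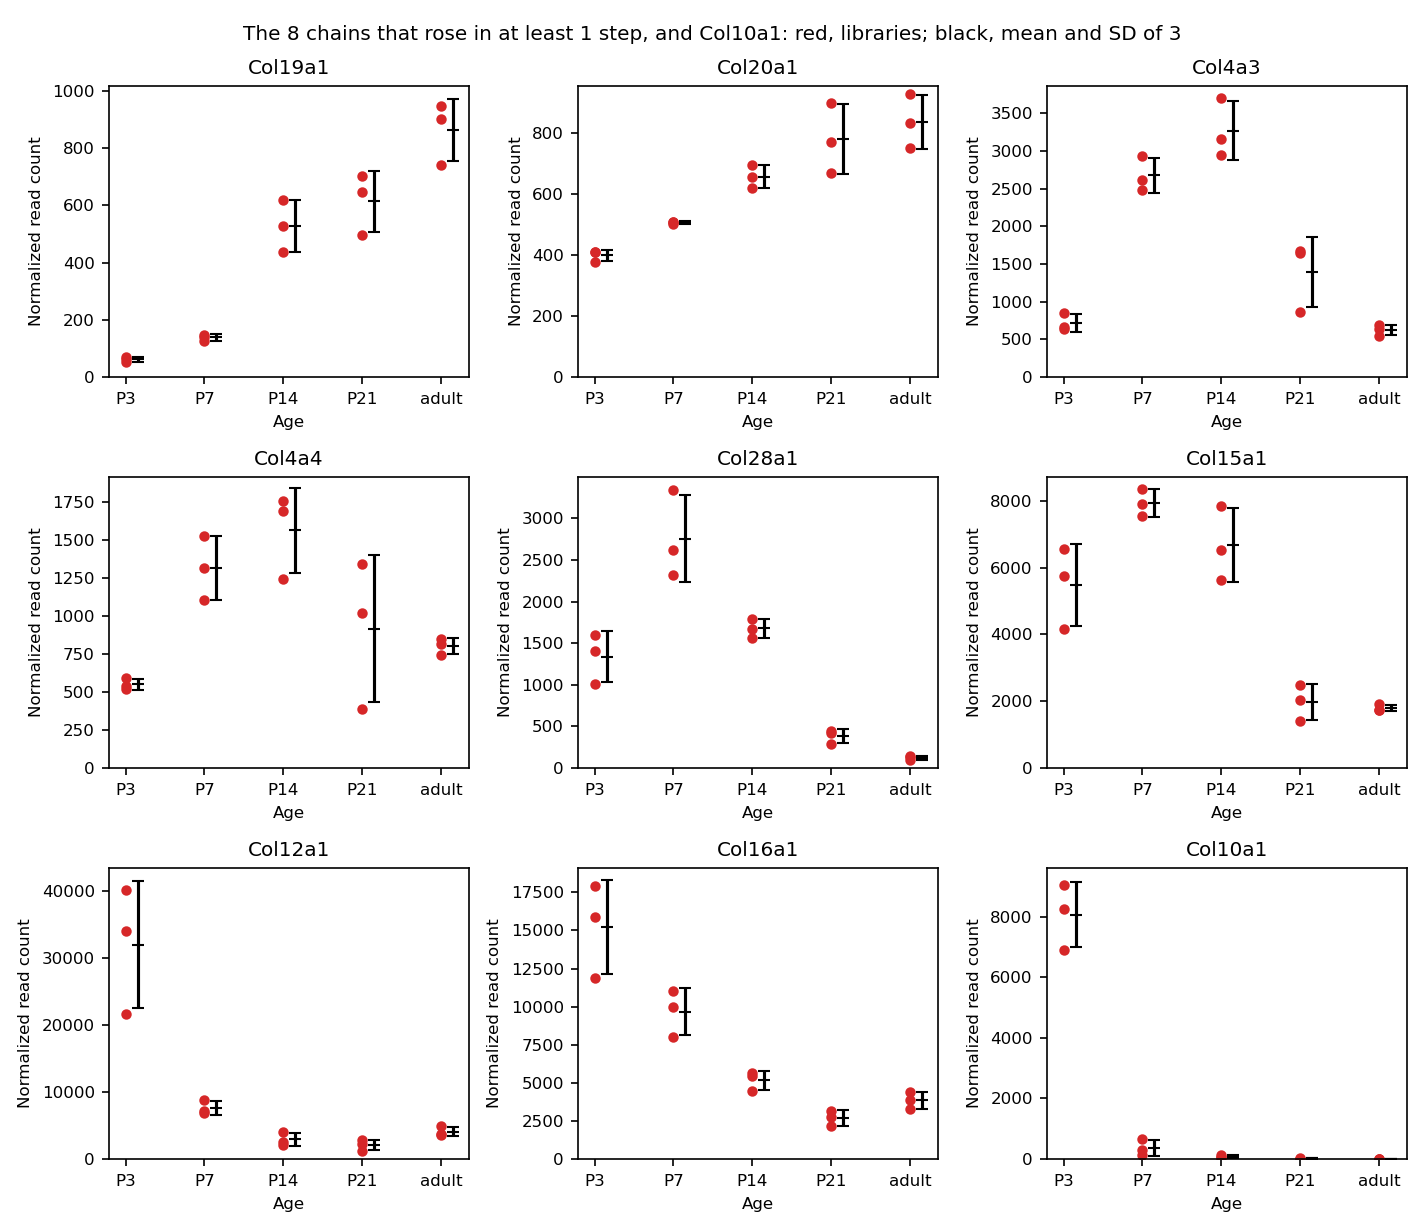
Normalized read count of the 8 chains that rose in at least 1 step, and of Col10a1, at 5 ages, with red points for libraries and black bars for the mean and SD of 3. Col19a1 and Col20a1 end highest in the adult, Col4a3 and Col4a4 peak at P14, Col28a1 and Col15a1 at P7, Col12a1 and Col16a1 pass a low at P21, and Col10a1 is near 0 after P7.

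Col12a1 and Col16a1 fell early and were called higher again in the adult. Col12a1 (mm10 chromosome 9, 79598987 to 79718722), which binds type I fibrils in dense connective tissue and bone, stood at 21600, 33969 and 40157 at P3, 7169, 6841 and 8800 at P7, 2100, 2598 and 4076 at P14, 2786, 1244 and 2297 at P21, and 4883, 3682 and 3651 in the adult. It fell from P3 to P7 (log2 fold change -2.03 ± 0.31 SE, limma adjusted p = 4.96e-04) and from P7 to P14 (log2 fold change -1.43 ± 0.31 SE, limma adjusted p = 0.00185), and rose from P21 to the adult (log2 fold change 1.01 ± 0.31 SE, limma adjusted p = 0.0158). The rise was lost without P21 replicate 2, the lowest library, and without adult replicate 1, the highest adult library. Col16a1 (mm10 chromosome 4, 130047840 to 130099277) stood at 11876, 15872 and 17906 at P3, 9953, 7996 and 11022 at P7, 4458, 5447 and 5627 at P14, 2757, 2168 and 3164 at P21, and 4382, 3864 and 3293 in the adult. Col16a1 fell from P3 to P7 (log2 fold change -0.65 ± 0.18 SE, limma adjusted p = 0.0173), a call lost in 3 of 25 alternatives, from P7 to P14 (log2 fold change -0.89 ± 0.18 SE, limma adjusted p = 0.00111) and from P14 to P21 (log2 fold change -0.95 ± 0.18 SE, limma adjusted p = 0.00662), a call lost with only both ages. It rose from P21 to the adult (log2 fold change 0.52 ± 0.18 SE, limma adjusted p = 0.0291), and this call was lost in 6 of 26 alternatives, among them quantile normalization and the fit without P21 replicate 2.

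Col22a1 (mm10 chromosome 15, 71798476 to 72034227), a FACIT of junctions between tissues, stood at 4200, 8409 and 8407 at P3, 3894, 4004 and 4962 at P7, 2099, 1604 and 3780 at P14, 924, 204 and 371 at P21, and 108, 40.5 and 63.2 in the adult. Col22a1 fell from P14 to P21 (log2 fold change -2.50 ± 0.50 SE, limma adjusted p = 0.00868) and from P21 to the adult (log2 fold change -2.64 ± 0.50 SE, limma adjusted p = 0.00126), and from P3 to the adult its log2 fold change was -6.65 ± 0.50 SE (limma adjusted p = 6.30e-08). Col14a1, a chain of fibril bundles, did not pass the test in any step but fell from P3 to the adult (-1.32 ± 0.20 SE, limma adjusted p = 5.97e-05).

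The beaded filaments of type VI, which anchor cells to the matrix and are found in the endoneurium, were called in the first 2 steps. Col6a1 (mm10 chromosome 10, 76708792 to 76726044) stood at 13525, 15807 and 17420 at P3, 10902, 10344 and 11883 at P7, 4675, 4866 and 6591 at P14, 3933, 2573 and 3567 at P21, and 4162, 2310 and 2689 in the adult. P3, P7 and P14 did not overlap, and P21 overlapped with the adult. Col6a1 fell from P7 to P14 (log2 fold change -1.05 ± 0.21 SE, limma adjusted p = 0.00103) and from P3 to the adult (log2 fold change -2.39 ± 0.21 SE, limma adjusted p = 2.69e-07). Col6a3 (mm10 chromosome 1, 90766860 to 90843971), the long chain of the molecule, stood at 5786, 7982 and 10271 at P3, 3459, 3320 and 3675 at P7, 1066, 1517 and 2434 at P14, 1018, 611 and 963 at P21, and 1399, 1189 and 1526 in the adult. It fell from P3 to P7 (log2 fold change -1.16 ± 0.28 SE, limma adjusted p = 0.00776) and from P7 to P14 (log2 fold change -1.14 ± 0.28 SE, limma adjusted p = 0.00399). Its adult libraries lay above all P21 libraries, a difference that did not pass the test (limma adjusted p = 0.0517). Col6a2 fell in the same steps as Col6a3, with a call from P3 to P7 (limma adjusted p = 0.03) that was lost in 5 of 25 alternatives.

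Col6a5 and Col6a6 replace Col6a3 in some tissues. Col6a6 (mm10 chromosome 9, 105689417 to 105828085) stood at 350, 410 and 416 at P3, 438, 443 and 242 at P7, 49.6, 56.1 and 71.9 at P14, 23.4, 20.6 and 89 at P21, and 73.9, 51.4 and 66.8 in the adult. It fell from P7 to P14 (log2 fold change -2.60 ± 0.43 SE, limma adjusted p = 2.59e-04), the largest fall of any chain in that step. Col6a5 stood between 11.3 and 122 and passed the test in no comparison. Of the 5 type VI chains, 2 fell from P3 to P7, 4 fell from P7 to P14 and 0 were called in the later steps. The per-kb ratio of Col6a1 to Col6a2 was 1.22 ± 0.0622 at P3 and 0.985 ± 0.0424 in the adult. The 8 fibroblast markers, without collagens, summed to 98251 to 105410 at P3, 145107 to 163114 at P7, 104238 to 123497 at P14, 75898 to 85953 at P21 and 59031 to 60022 in the adult, with none at 0, and their part was not tested. From P3 to the adult 4 of these 8 markers fell and 2 rose.

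Col28a1, Col15a1 and Col18a1 are chains of basement membranes or of the matrix of nerves. Col28a1 (mm10 chromosome 6, 7997808 to 8192617), known from peripheral nerve and its glia, stood at 1010, 1404 and 1602 at P3, 2316, 2620 and 3333 at P7, 1563, 1674 and 1792 at P14, 422, 289 and 448 at P21, and 143, 135 and 93.6 in the adult. P7 was its highest age and no neighbouring ages overlapped. Col28a1 rose from P3 to P7 (log2 fold change 1.05 ± 0.21 SE, limma adjusted p = 0.00324) and fell from P7 to P14 (log2 fold change -0.70 ± 0.21 SE, limma adjusted p = 0.0154), from P14 to P21 (log2 fold change -2.14 ± 0.21 SE, limma adjusted p = 1.17e-04) and from P21 to the adult (log2 fold change -1.63 ± 0.21 SE, limma adjusted p = 1.65e-04). The fall to P14 was lost without P7 replicate 6. The sums of the Schwann cell markers given above stood higher at P7 than at P3 as well, and highest at P14, and their part in the Col28a1 result was not tested.

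Col15a1 (mm10 chromosome 4, 47208012 to 47313165), a chain of the outer zone of basement membranes, stood at 4153, 5740 and 6564 at P3, 7895, 7532 and 8364 at P7, 5640, 6518 and 7839 at P14, 2029, 1399 and 2479 at P21, and 1907, 1749 and 1751 in the adult. Its rise from P3 to P7 was called (log2 fold change 0.56 ± 0.20 SE, limma adjusted p = 0.0491), and the call was lost in 13 of 25 alternatives. Col15a1 fell from P14 to P21 (log2 fold change -1.78 ± 0.20 SE, limma adjusted p = 2.14e-04). Col18a1 (mm10 chromosome 10, 77052179 to 77166530), the precursor of endostatin, stood at 7812, 8882 and 9013 at P3, 9723, 9215 and 7583 at P7, 2102, 2444 and 2416 at P14, 1494, 1384 and 2212 at P21, and 1330, 1116 and 1485 in the adult. All of its P14 libraries lay below all P7 libraries, and it fell in that step (log2 fold change -1.92 ± 0.16 SE, limma adjusted p = 7.30e-07) and in no other. From P3 to the adult its log2 fold change was -2.72 ± 0.16 SE (limma adjusted p = 6.21e-09). Slc19a1 overlaps Col18a1 on the opposite strand.

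Of the transmembrane chains, Col25a1 (mm10 chromosome 3, 130180845 to 130599883), a neuronal chain needed for motor innervation, stood at 3577, 2951 and 2439 at P3, 1470, 1467 and 1519 at P7, 549, 538 and 525 at P14, 605, 462 and 558 at P21, and 324, 375 and 343 in the adult. Col25a1 fell from P3 to P7 (log2 fold change -0.99 ± 0.13 SE, limma adjusted p = 1.52e-04), from P7 to P14 (log2 fold change -1.47 ± 0.13 SE, limma adjusted p = 9.17e-07) and from P21 to the adult (log2 fold change -0.63 ± 0.13 SE, limma adjusted p = 0.00166). Its P14 libraries overlapped with those of P21. Col13a1, a chain of the neuromuscular junction, fell in the last 3 steps. Of these calls the last was lost in 6 of 26 alternatives, and the one from P14 to P21 with only both ages. Col23a1 fell from P14 to P21 (-0.73 ± 0.16 SE, limma adjusted p = 0.0122), a call lost without P14 replicate 3 and with only both ages. Col17a1, a chain of hemidesmosomes, stood at 33 or less in all libraries. It was called from P3 to the adult alone, by -2.16 ± 0.55 SE (limma adjusted p = 0.00318), or by -1.53 with quantile normalization and -1.24 with a pseudocount of 10.

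Col26a1 (mm10 chromosome 5, 136741760 to 136883215) stood at 8133, 7899 and 8107 at P3, 8447, 7843 and 7952 at P7, 1812, 1934 and 2799 at P14, 459, 456 and 520 at P21, and 247, 165 and 216 in the adult. Its P3 and P7 libraries lay between 7843 and 8447, and each later age was below the one before. Col26a1 fell from P7 to P14 (log2 fold change -1.92 ± 0.15 SE, limma adjusted p = 5.41e-07), from P14 to P21 (log2 fold change -2.16 ± 0.15 SE, limma adjusted p = 9.76e-06) and from P21 to the adult (log2 fold change -1.21 ± 0.15 SE, limma adjusted p = 1.53e-04). Col7a1, the chain of anchoring fibrils under epithelia, stood between 233 and 830 and was called in no pairwise comparison, while the joint limma test over the 5 ages called it (adjusted p = 0.0399). With Col4a6, Col6a5, Col14a1 and Col17a1 it made up the 5 chains that were called in none of the 4 steps. The most frequent course, shared by 8 chains (Col3a1, Col4a5, Col5a2, Col9a1, Col9a2, Col9a3, Col13a1 and Col26a1), was no call from P3 to P7 and a fall in each later step. The shares of all genes with this course, or with no call in any step, were not counted.

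Per kb of transcript, the order of the chains changed with age. It rests on the length of 1 transcript per gene, and other lengths could change it. With all annotated exons merged, Col1a2 is 12426 bases long in place of 5348, and Col1a1 6563 in place of 5930. At P3 the order was led by Col1a2 (60771 ± 14194 normalized counts per kb), Col2a1 (41546 ± 6133), Col1a1 (34868 ± 10246) and Col9a1 (28009 ± 2878). The SDs of neighbours in this order overlapped. Within every P3 library, though, Col1a2 lay above Col2a1 and Col2a1 above Col1a1. At P7 and P14 Col2a1 led (43680 ± 4528 and 32234 ± 5181) before Col1a2 (34611 ± 6417 and 28310 ± 3856). Their SDs overlapped, while Col2a1 was the higher of the pair in every library of these ages. At P21 Col1a2 (9577 ± 1845) came before Col11a2 (7551 ± 2179) and Col2a1 (6261 ± 1800). Again their SDs overlapped, while this order held within every P21 library. In the adult Col11a2 (4019 ± 741) and Col1a2 (3613 ± 321) were first, within their SDs, Col9a2 (2078 ± 199) and Col9a3 (2024 ± 168) next, and Col27a1 (1518 ± 160) and Col14a1 (1070 ± 9.35) stood above Col2a1 (934 ± 52.5). Col19a1 was among the lowest 3 at P3 and P7, with 14.4 and 32.5 per kb.

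Genes that make, process and remove collagen were counted beside the chains. The share of all genes that fell or rose in each comparison is the one given above. Of 15 genes listed for the prolyl and lysyl modification of nascent chains, 12 fell and 1 rose from P3 to the adult. P4hb, a subunit of prolyl hydroxylase, went from 33027 ± 2264 at P3 to 10744 ± 334 in the adult (log2 fold change -1.62 ± 0.07 SE, limma adjusted p = 3.87e-10). Plod2, which hydroxylates lysines for crosslinks, went from 7648 ± 392 to 1527 ± 156 (-2.33 ± 0.10 SE, limma adjusted p = 3.11e-10), and P3h3, of the prolyl 3-hydroxylase family, from 6032 ± 237 to 1667 ± 65.3. By step 7, 10, 9 and 7 of the 15 fell and 1, 0, 0 and 3 rose.

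Of 9 genes of folding and secretion, 6 fell and 2 rose (Mia3 and Tmem38b) from P3 to the adult. Serpinh1, the collagen chaperone of the endoplasmic reticulum, went from 55502 ± 4543 at P3 to 48380 ± 3146 at P7, 25404 ± 2548 at P14, 13810 ± 1851 at P21 and 5618 ± 352 in the adult, and its last 3 steps passed the test. Fkbp10, a prolyl isomerase, went from 11602 ± 987 to 1217 ± 84.2. Sparc, a matrix protein that binds collagen, took another course, with 156945 ± 19368 at P3, 285864 ± 48186 at P14 and 27193 ± 1715 in the adult, and it rose from P7 to P14 (0.61 ± 0.13 SE, limma adjusted p = 0.0016) before falling in both later steps. By step 2, 5, 5 and 6 of the 9 fell and 0, 2, 0 and 1 rose.

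Of 8 genes that trim the propeptides, 7 fell and 0 rose from P3 to the adult, with Bmp1, which removes the C-propeptide, going from 11869 ± 725 to 1930 ± 117. Pcolce2, an enhancer of that cleavage, rose from P3 to P7 (0.91 ± 0.14 SE, limma adjusted p = 4.87e-04) and fell in the last 2 steps, and Adamts2, which removes the N-propeptide, fell from P7 to P14 and from P14 to P21. All 5 lysyl oxidases, which crosslink the fibrils, fell from P3 to the adult. Among them Lox stood at 14272 ± 1532 at P3, 11241 ± 1943 at P21 and 2603 ± 477 in the adult and fell from P3 to P7 (limma adjusted p = 0.0166) and from P21 to the adult (1.51e-05). Loxl1 fell in the last 3 steps, and Loxl2 in the last 2, from 2671 ± 935 at P14 to 571 ± 253 and 130 ± 29.3. By step 4, 4, 5 and 1 of the processing genes fell and 1, 0, 0 and 1 rose, the last of these Adamts3. Of the lysyl oxidases 3, 1, 3 and 4 fell and 0 rose in any step.

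All 9 genes of collagen breakdown fell from P3 to the adult, with 5, 7, 3 and 5 falling in the 4 steps and 0 rising. Ctsk, the collagenase of osteoclasts, went from 49929 ± 13580 at P3 to 514 ± 92.6 in the adult and fell in every step. Mmp2 and Mmp14, which cut collagen outside cells, fell in the last 3 steps, Mmp2 from 27638 ± 1753 at P7 to 3545 ± 167 in the adult. Of 9 receptors tested, 6 fell and 0 rose from P3 to the adult (Gp6 was below the minimum). By step 3, 4, 2 and 1 of them fell and 2, 0, 0 and 1 rose. Itgb1, the beta chain of the collagen-binding integrins, rose from P3 to P7 (0.36 ± 0.06 SE, limma adjusted p = 9.37e-04) and fell in each later step. Adgrg6, a receptor of Schwann cells that binds type IV collagen and is needed for myelination, went from 3670 ± 209 at P3 to 2317 ± 175 at P7 and 1068 ± 53.4 at P14, and both steps were falls by the test. Itga11, a fibroblast receptor for fibrillar collagen, fell in the first 3 steps and rose from P21 to the adult (0.77 ± 0.26 SE, limma adjusted p = 0.0269). Ddr2, a tyrosine kinase that binds fibrillar collagen, stood between 3249 and 7658 in all libraries.

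Of 10 regulators of cartilage and bone collagen genes tested, 8 fell and 0 rose from P3 to the adult (Ccn2 was not analysed here). Runx2 and Sp7, transcription factors of bone cells, fell in the last 3 steps, Runx2 from 4602 ± 614 at P7 to 392 ± 42.1 in the adult and Sp7 from 6969 ± 810 to 555 ± 94.7. Tgfb3, a growth factor that raises fibrillar collagen, fell in the first 2 steps, from 4861 ± 609 at P3 to 1582 ± 249 at P14. By step 4, 7, 3 and 4 of the 10 fell and 1, 0, 0 and 0 rose.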

How the data were processed

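The auditory nerve was profiled by RNA sequencing in 15 libraries, 3 per age. Per the labels' protocols, the miRNeasy kit gave total RNA, degraded or contaminated preparations were dropped after Bioanalyzer checks, and the TruSeq RNA kit was used for sequencing libraries. Per the submitters' processing notes, Partek, TopHat2 and DESeq2 were used on build mm10. Annotation, counting settings, use of strand and versions are not given in the sources used here. The signal deposited by the authors is a read count per gene divided by a size factor per library, a normalized read count. Of its positive values, 99.94% were whole multiples of a step per library within a tolerance of 0.1, and dividing by that step recovered 35250155 to 42258738 reads. The authors' own fold changes and p-values were not used.

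The members and lists were chosen with earlier results of these data known. limma (3.58.1, R 4.3.3; trend, robust empirical Bayes) was fitted to log2(value + 1) of the 16723 genes that reached 10 normalized counts in 3 libraries or more, with all 15 libraries in 1 fit and a term per age. Tests were two-sided, with Benjamini-Hochberg adjustment over all 16723 genes and a threshold of 0.05. Nothing in the labels gives litter or library date, so p-values measure the spread between these libraries. All 43 chains matched GENCODE M21, from which lengths (the principal transcript with the longest coding sequence) and overlapping genes were taken. Printed ends are the table's stop minus 1. Reads carry no molecular identifiers, so the floor of 3 reads covers counting error only. Chains given with all values were, per comparison and direction, up to 4 called chains with the largest change and no overlap between libraries, and 18 set by name; pathway genes were up to 3 called per list with the smallest joint p. Alternatives were quantile and TMM scaling, no filter or one of 50, pseudocounts of 0.1 and 10, edgeR (4.0.16) and DESeq2 (1.42.0) on recovered reads, only both ages, a term for the Eif2s3y pattern, each library left out, and a replicate block. The limma code was tested on simulated data. A marker on the Schwann cell list is not reported here.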

Additional observations from a re-analysis of the deposited data

How the results depend on the processing

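Of 127 called changes of single chains, 93 kept their call in every alternative run, 34 lost it in at least 1, and 0 turned direction. By comparison, 8, 4, 15, 6 and 1 calls were lost from P3 to P7, P7 to P14, P14 to P21, P21 to the adult and P3 to the adult. Of 88 changes not called, 35 were called in at least 1 alternative. Leaving out each library in turn gave 3 to 8 chains that rose and 7 to 13 that fell from P3 to P7, 0 to 1 that rose from P14 to P21, and 0 to 5 that rose from P21 to the adult. The counts of risers from P21 to the adult were 5 with a filter of 50, 5 with DESeq2 and 1 with the Eif2s3y term, and 10 chains fell from P14 to P21 with only both ages in the fit. The cause was not tested, except that the fit with only both ages holds fewer libraries.

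Class medians (log2) moved with quantile normalization for the fibrillar chains from P3 to the adult (-4.48), the network chains from P7 to P14 (-0.34), P21 to the adult (-0.68) and P3 to the adult (-2.15), the FACITs from P3 to the adult (-3.32) and the cartilage chains from P7 to P14 (-0.85) and P3 to the adult (-4.48). The FACIT and cartilage medians from P3 to P7 turned to -0.08 and -0.08. With the Eif2s3y term the network median from P14 to P21 was -0.79 and the cartilage median from P21 to the adult -0.96. The cartilage median from P14 to P21 was -1.80 with a pseudocount of 10, -1.83 with edgeR and -1.82 with DESeq2, and from P21 to the adult -0.90, -1.53 and -1.52. Without 1 library the network medians ranged -0.09 to 0.05 from P3 to P7 (-0.0021, -0.09, -0.0047, -0.01 and -0.08 where they turned), -0.35 to -0.07 from P7 to P14, -1.18 to -0.68 from P14 to P21 and -0.79 to -0.38 from P21 to the adult. The FACIT median from P21 to the adult ranged -0.02 to 0.21, and the cartilage medians -2.57 to -1.77 from P14 to P21, -1.52 to -0.88 from P21 to the adult and -4.50 to -4.15 from P3 to the adult.

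Of 18 same-numbered pairs of libraries, 5 deviated together with r over 0.1 (r from -0.229 to 0.319), and 3 of 12 libraries were closest to their own number, so the numbers were not taken to pair the mice. With a replicate block over 12 libraries, 24 chains fell from P14 to P21, 3 rose and 19 fell from P21 to the adult, and 2 rose and 36 fell from P3 to the adult; the calls lost were Col1a1 in the first of these and Col13a1 and Col19a1 in the second. No paired analysis was possible because the P7 libraries share no number with the others, for the 2 comparisons with P7. Chains near the floor, Col10a1 and Col17a1 in the adult, are limited by depth.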
